A study of Mus musculus with 6 samples.

Results

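The data described here are the DNA methylation levels of 9 mouse genes of the extraembryonic endoderm, Gata4, Gata6, Sox17, Foxa2, Sox7, Dab2, Lama1, Col4a1 and Foxq1, in pluripotent stem cells obtained by different routes. The genes were taken from a list of names and not by a measured value, although earlier results of these data were known when the list was chosen. They are 9 of the 21951 protein-coding genes of the annotation. All CpGs between 5 kb before a gene's start and its end were taken on mm10 where the reads of both replicates of a cell type summed to at least 10 in each of the 3 cell types. This left 1104 CpGs of the 9 genes, of 1106981 CpGs over the genome, and these are called compared CpGs. The cell types were mouse embryonic stem cells of the male line E14 (mESCs, passage 20 to 30), chemically induced pluripotent stem cells (C-iPSCs, male, passage 5 to 10) and pluripotent stem cells induced by the transcription factors Oct4, Sox2, Klf4 and c-Myc from retroviral vectors (4F-iPSCs, male, passage 5 to 10). Both kinds of iPSC came from mouse fibroblasts that the study's methods call OG2-MEFs, a name known for an Oct4-GFP reporter strain, and the small-molecule mixture for C-iPSCs held no reprogramming transgene. A later stage of that mixture held 5-aza-2'-deoxycytidine, an inhibitor of DNA methylation, which the methods do not give for 4F-iPSCs. Whether this treatment left a mark in the levels was not tested. All 3 cell types were grown with leukemia inhibitory factor and the inhibitors CHIR99021 and PD0325901. The labels give fibroblast feeders that were taken off before collection, whereas the study's methods give gelatin-coated plates. Each cell type had 2 libraries, and the labels do not say whether these came from separate lines or cultures, so the spread between them may be technical. Between mESCs and either iPSC type, route of derivation, passage and the mouse strains behind E14 and the fibroblasts change together and cannot be told apart. The iPSC types share the passage range and the named fibroblast source. Their routes differ in transgenes and small molecules at once, which cannot be told apart either.

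The extraembryonic endoderm is the lineage of the blastocyst that lines the yolk sac and does not build the embryo proper. The zinc finger factors GATA4 and GATA6 stand at the head of its program, with SOX17, SOX7 and FOXA2 beside or below them, and its cells lay down a thick basement membrane of laminin and type IV collagen. Chemical reprogramming of mouse fibroblasts is known to pass through a state that expresses such genes before pluripotency. Methylated CpGs in a CpG-rich promoter go with a silent gene, and CpGs outside such islands are usually methylated in somatic cells and less so in embryonic stem cells grown with both inhibitors. The comparison asks whether genes used on the chemical route carry a different methylation in the finished lines. Only DNA methylation was measured in these files, so nothing here gives the expression of the genes.

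The sequences below show what kind of DNA carried the differences. They are read from the GRCm38 (mm10) reference on the strand of the gene, with compared CpGs in capitals. The Gata4 stretches are a short one at the start of the gene record, where the 500 bases around its CpGs are CpG-poor, chr14:63271667-63271728, and a CpG-rich one inside the record and before the basic transcripts, chr14:63256069-63256268. The Sox7 stretch is in the coding exon at the far end of the gene, chr14:63948101-63948160. The Col4a1 stretch crosses a coding exon and the intron after it, chr8:11221237-11221385. The Dab2 stretch is intronic, chr15:6360125-6360324.

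Gata4 at the gene start: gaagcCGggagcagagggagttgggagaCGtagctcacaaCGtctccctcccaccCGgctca
Gata4 CpG-rich stretch: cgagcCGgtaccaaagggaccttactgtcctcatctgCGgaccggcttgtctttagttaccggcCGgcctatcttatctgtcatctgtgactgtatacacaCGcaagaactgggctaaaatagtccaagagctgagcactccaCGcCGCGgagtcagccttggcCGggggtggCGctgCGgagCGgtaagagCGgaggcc
Sox7 coding exon: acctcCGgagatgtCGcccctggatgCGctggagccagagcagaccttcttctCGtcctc
Col4a1 exon and intron: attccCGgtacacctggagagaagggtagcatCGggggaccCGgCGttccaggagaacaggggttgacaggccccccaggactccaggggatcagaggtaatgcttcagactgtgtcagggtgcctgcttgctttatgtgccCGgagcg
Dab2 intron: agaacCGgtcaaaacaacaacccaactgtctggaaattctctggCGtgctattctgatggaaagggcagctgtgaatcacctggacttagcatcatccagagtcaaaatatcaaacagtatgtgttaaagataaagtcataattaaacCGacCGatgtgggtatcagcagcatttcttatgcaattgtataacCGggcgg

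The CpG-rich Gata4 stretch held 15 CpGs in 200 bases and was read at 2.70% ± 0.791 (SD, n = 2) for mESCs, 3.01% ± 0.709 for C-iPSCs and 3.14% ± 0.327 for 4F-iPSCs. The stretch at the start of the Gata4 record held 4 CpGs in 62 bases, close to that density, but lies in CpG-poor surroundings, and its level was 45.6% ± 1.85 in mESC, 75.4% ± 8.04 in C-iPSC and 85.0% ± 6.89 in 4F-iPSC libraries. The same order was read in the Dab2 intron, at 39.3% ± 11.4, 69.8% ± 16.2 and 82.4% ± 5.45. Its 5 compared CpGs held only 32 and 112 reads in the mESC, 72 and 16 in the C-iPSC and 93 and 29 in the 4F-iPSC libraries. These stretches were chosen after their values were seen, and other stretches in CpG-poor surroundings differ. Of the sparse CpGs of the 9 genes, defined further on by the DNA around them, 30.3% had a level under 30% in mESCs, while 17.7% did for C-iPSCs and 17.1% for 4F-iPSCs. For other sparse CpGs in spans of protein-coding genes these shares were 31.8%, 20.9% and 16.7%.

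Reduced representation bisulfite sequencing reads the ends of MspI fragments, so it covers CpG-rich DNA far better than the rest. A library held between 53694199 and 96534037 CpG reads. The compared share of a gene's reference CpGs ran from 1.51% in Dab2 (18 CpGs) and 3.55% in Lama1 (65 CpGs) to 40.5% in Sox17 (125 CpGs). Gata4 had 237 compared CpGs, Gata6 212, Foxa2 127, Foxq1 113, Col4a1 111 and Sox7 96. The median reads per compared CpG and library were between 24 for Dab2 and 75 for Gata6. Of 5 listed pluripotency genes, 3 had a compared CpG in the promoter. The 2 CpGs of the Nanog promoter had 0% and 3.95% in the mESC, 7.14% and 6.02% in the C-iPSC and 9.77% and 9.28% in the 4F-iPSC libraries, and the 7 of Zfp42 had 6.77% and 6.34%, 6.41% and 10.3%, and 9.21% and 18.3%. All are low levels, so they do not check which library belongs to which cell type. The Pou5f1 (Oct4) promoter reached 24.3% in a 4F-iPSC library, but it had 488 and 527 reads in the mESC libraries against 7219 to 8509 in the iPSC libraries, and whether copies of the Oct4-GFP reporter contributed reads was not tested.

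Each gene was divided into an upstream part (5 to 1 kb before the gene start), a promoter (1 kb to each side of it) and a gene body (the rest to the gene end), and a level is the methylated share of all reads over the compared CpGs of such a segment. Of 20 member segments with a compared CpG, 19 held at least 3 and were tested with a quasi-binomial model across all 31022 such segments of protein-coding genes, with dispersions squeezed by limma and Benjamini-Hochberg adjustment. An exact permutation test of 2 libraries against 2 cannot give a two-sided p below 0.33, so no single segment can pass it.

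**Figure D1:**
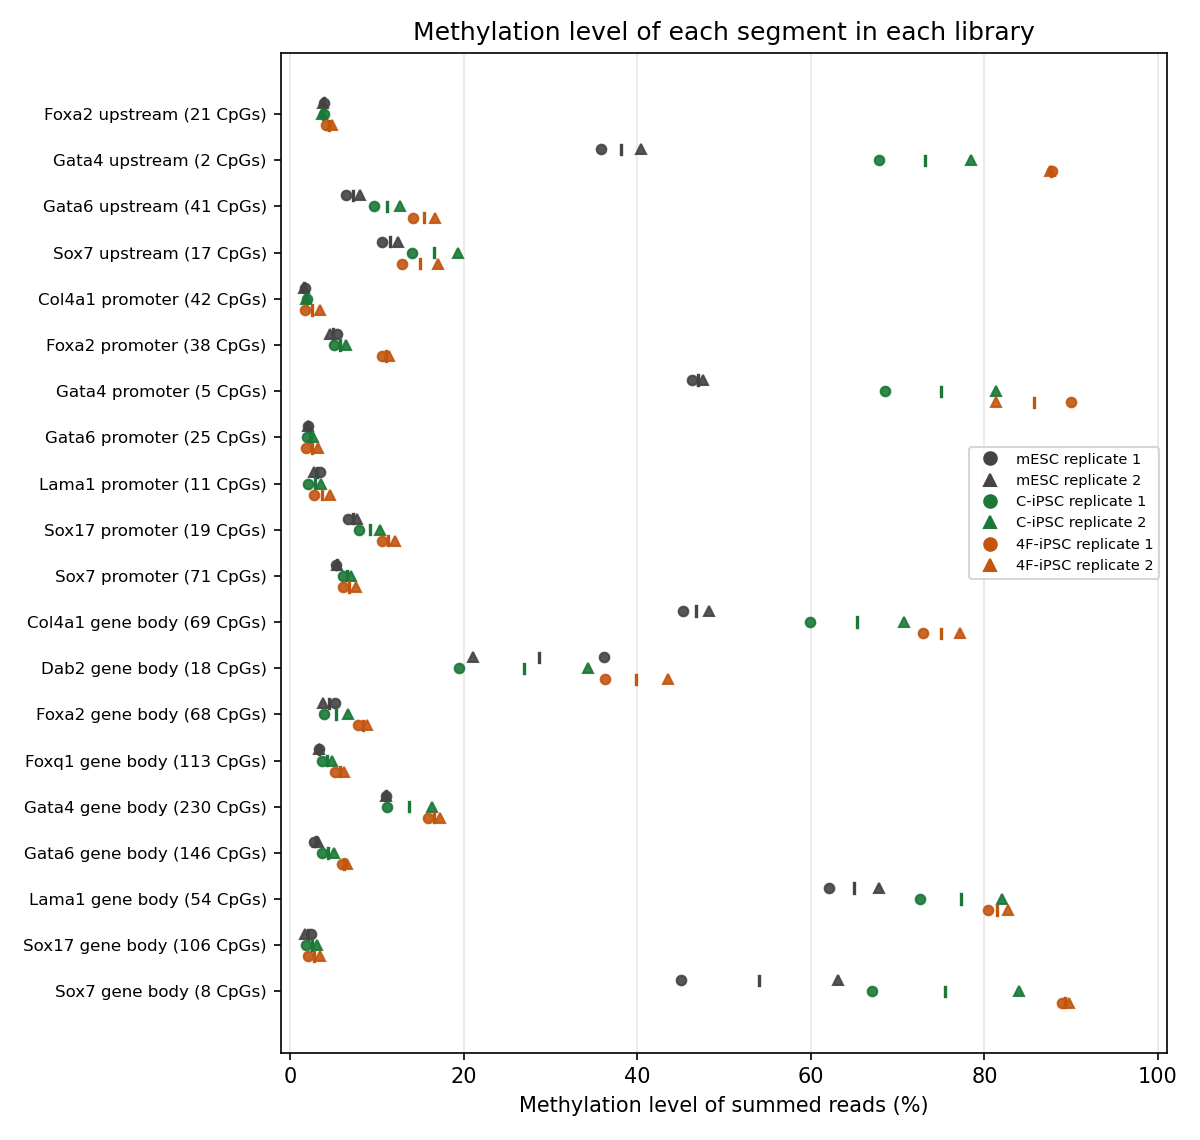
Methylation level of summed reads (x axis, percent) of the 20 member segments (y axis, with their number of compared CpGs) in each library, with circles for replicate 1, triangles for replicate 2 and bars for the mean of the 2 libraries of a cell type. Most segments lie under 20% in all 6 libraries, the Dab2 gene body lies between 19.5% and 43.5%, and those of Gata4 at its record start and the gene bodies of Sox7, Lama1 and Col4a1 lie between 35.8% and 90.0%, with mESCs lowest.

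GATA4 and GATA6 are the factors that can by themselves turn embryonic stem cells toward extraembryonic endoderm. Gata4 (ENSMUSG00000021944, chr14:63198922-63271692, minus strand) has a gene record that starts at 63271692, whereas its longest basic transcripts start at 63245271, so the promoter of the rule lies in CpG-poor surroundings far from those starts. Over its 5 CpGs the mESC libraries had 46.3% and 47.6%, the C-iPSC libraries 68.6% and 81.3%, and the 4F-iPSC libraries 90.0% and 81.3%. The mESC libraries were lowest and did not overlap with either iPSC type. They held 121 and 126 reads over these CpGs, against 392 to 535 in the iPSC libraries. Over the gene body the mESC libraries held 6710 and 5047 reads, against 13790 to 17091. Over all CpGs of the genome they held 75077465 and 53694199, against 84792206 to 96534037. The reason was not tested. The promoter difference was 29.0 percentage points between C-iPSCs and mESCs (adjusted p = 0.0147 in the quasi-binomial model) and 38.2 points between 4F-iPSCs and mESCs (adjusted p = 4.46e-05), and the 9.22 points between 4F-iPSCs and C-iPSCs did not pass (adjusted p = 0.222). Around the transcript starts near 63245271 the 61 compared CpGs within 1 kb gave 6.56% ± 0.378 (SD, n = 2) for mESCs, 6.39% ± 1.90 for C-iPSCs and 7.19% ± 0.0426 for 4F-iPSCs. Another basic transcript starts further in, at 63213607. The 3 compared CpGs within 1 kb of it gave 28.2% ± 10.2, 55.0% ± 10.4 and 73.1% ± 5.87 in the same order. With promoters drawn around every transcript start, the Gata4 promoter was not called against mESCs, the differences from mESCs being 1.49 points in C-iPSCs (adjusted p = 0.887) and 3.24 points in 4F-iPSCs (adjusted p = 0.368). The call in C-iPSCs was also lost without mESC replicate 1 (adjusted p = 0.813), mESC replicate 2 (0.207) or C-iPSC replicate 2 (0.170). Sparse CpGs of Gata4, those in CpG-poor surroundings, were not everywhere at such levels, and 5 sparse CpGs about 24 kb into the record had 9.87%, 14.2% and 17.8% in mESCs, C-iPSCs and 4F-iPSCs, the same order at a low level.

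The Gata4 gene body, with 230 compared CpGs, had 11% and 11.1% in the mESC, 11.2% and 16.3% in the C-iPSC and 15.9% and 17.3% in the 4F-iPSC libraries, and did not pass in any comparison (adjusted p = 0.782, 0.187 and 0.469 for C-iPSCs against mESCs, 4F-iPSCs against mESCs and 4F-iPSCs against C-iPSCs in the quasi-binomial model). This mean hides a division by place. A stretch of 50 CpGs about 15.4 to 15.9 kb into the record was read at 2.17% ± 0.368, 2.37% ± 0.873 and 2.73% ± 0.963, whereas 5 CpGs near 4 kb had 41.0% ± 0.692 for mESCs, 64.6% ± 8.0 for C-iPSCs and 79.1% ± 0.861 for 4F-iPSCs. At the pair of CpGs 53 kb into the gene the mESC libraries were far apart, at 30.8% and 63.2%, below the 78.0% to 88.1% of the iPSC libraries. These levels rest on 13 and 19 reads in the mESC and 11 to 42 in the iPSC libraries.

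Gata6 (ENSMUSG00000005836, chr18:11052064-11085635, plus strand) was low at its start and higher in part of its upstream DNA. Its promoter, 25 CpGs, had library levels between 1.82% and 3.23% with the cell types overlapping. Its upstream part, 41 CpGs, had 6.45% and 8.02% in the mESC, 9.71% and 12.7% in the C-iPSC and 14.2% and 16.7% in the 4F-iPSC libraries. The cell types were apart in every library there, and only the 8.39 points between 4F-iPSCs and mESCs passed the quasi-binomial model (adjusted p = 0.00381). Of this upstream DNA, 9 CpGs between 2.7 and 2.1 kb before the start moved most, from 16.7% ± 2.19 for mESCs to 29.9% ± 5.66 for C-iPSCs and 42.0% ± 0.286 for 4F-iPSCs. The gene body, 146 CpGs, had 2.81% and 3.21%, 3.67% and 5.08%, and 6.01% and 6.52% in the same order of cell types, and the 3.30 points between 4F-iPSCs and mESCs passed (adjusted p = 0.00891). Without mESC replicate 1 or 4F-iPSC replicate 2 neither Gata6 segment passed (adjusted p = 0.267 and 0.0831 upstream, 0.310 and 0.106 in the gene body), and without mESC replicate 2 or with limma on mean CpG levels the gene body did not (adjusted p = 0.0892 and 0.0632).

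SOX17 and SOX7 are related HMG-box factors of the endoderm, SOX7 being a mark of the parietal endoderm. Sox17 (ENSMUSG00000025902, chr1:4490931-4497354, minus strand) had no called segment and no strongly called CpG among 125. Its promoter libraries read 6.70% and 7.76% in the mESC, 7.99% and 10.4% in the C-iPSC and 10.6% and 12.1% in the 4F-iPSC libraries, in that order without overlap, but the largest difference was 4.10 points (adjusted p = 0.188 in the quasi-binomial model). Its gene body, 106 CpGs over the coding exons and an intron, lay between 1.73% and 3.50% in all 6 libraries, and 2.01% of all protein-coding gene bodies had a lower level in mESCs.

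Sox7 (ENSMUSG00000063060, chr14:63943673-63950732, plus strand) had a low promoter and a gene body that differed between the cell types. Its 71 promoter CpGs lay between 5.32% and 7.54% in the 6 libraries and did not pass. They held 1897 and 1659 reads in the mESC libraries, against 4321 to 5298 in the iPSC libraries. All 8 compared CpGs of its gene body lie in the coding exon near its far end, 4.4 to 4.8 kb after the start, and had 45.0% and 63.1% in the mESC, 67.1% and 84.0% in the C-iPSC and 88.9% and 89.8% in the 4F-iPSC libraries. The 3 cell types did not overlap, although the libraries of mESCs and of C-iPSCs stood well apart. Reads over these CpGs numbered 320 and 130 in the mESC libraries and 574 to 774 in the iPSC libraries. In Gata4 and Sox7, both on chromosome 14, the mESC libraries held fewer reads in every segment, and the reason was not tested. The level differences of the Sox7 gene body were 25.5 points between C-iPSCs and mESCs (adjusted p = 0.0130 in the quasi-binomial model), 39.1 points between 4F-iPSCs and mESCs (adjusted p = 1.93e-07) and 13.7 points between 4F-iPSCs and C-iPSCs (adjusted p = 0.0463). This was the only member segment called between the iPSC types, and it lost that call without any of 5 libraries in turn, mESC replicate 1 or 2, C-iPSC replicate 1 and 4F-iPSC replicate 1 or 2, with adjusted p between 0.136 and 0.824. The difference was 5.34 points without C-iPSC replicate 1 and 22.3 points without C-iPSC replicate 2. That call was also lost with limma on mean CpG levels (adjusted p = 0.0694), at least 5 CpGs per segment (0.0524) or a dispersion prior without a trend (0.124). Against mESCs the call in C-iPSCs was lost without mESC replicate 1, where the difference was 12.2 points (adjusted p = 0.974), mESC replicate 2 (0.0839) or C-iPSC replicate 2 (0.202), and that in 4F-iPSCs without mESC replicate 1, at 25.3 points (0.132). With promoters of 0.5 kb to each side, or of 2 kb upstream to 0.5 kb downstream, more CpGs count as gene body, and the differences fell to 10.5 points in C-iPSCs (adjusted p = 0.434 and 0.411), 21.6 points in 4F-iPSCs (0.016 and 0.0144) and 11.1 points between the iPSC types (0.224 and 0.209).

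FOXA2 is a forkhead pioneer factor of visceral and definitive endoderm. In Foxa2 (ENSMUSG00000037025, chr2:148042877-148046969, minus strand) the 4F-iPSC libraries stood above the others over summed reads, and the place of the C-iPSCs depends on the weighting. The promoter, 38 CpGs, had 5.39% and 4.56% in the mESC, 5.03% and 6.41% in the C-iPSC and 10.6% and 11.4% in the 4F-iPSC libraries. The difference between 4F-iPSCs and mESCs was 6.07 points (adjusted p = 0.0144 in the quasi-binomial model), that between C-iPSCs and mESCs 0.663 points (adjusted p = 0.959), and that between 4F-iPSCs and C-iPSCs 5.40 points, which did not pass (adjusted p = 0.0901). The mean over CpGs, in which each CpG counts alike, was 5.74% for mESCs, 8.16% for C-iPSCs and 10.3% for 4F-iPSCs. The gene body, 68 CpGs, was 3.78 points higher in 4F-iPSCs than in mESCs (adjusted p = 0.0455), with library levels between 3.83% and 8.89%. The promoter call was lost without mESC replicate 1 (adjusted p = 0.155), mESC replicate 2 (0.246) or 4F-iPSC replicate 2 (0.0600), and the gene body call without any of the mESC or 4F-iPSC libraries (0.0761 to 0.428). Both were lost with limma on mean CpG levels (adjusted p = 0.0626 and 0.0963). With promoters of 0.5 kb to each side the promoter was 9.69 points higher in 4F-iPSCs than in mESCs (adjusted p = 0.0236 in the quasi-binomial model). The 2 strongly called CpGs of the gene lie within 1 kb before the start, at the edge of the CpG-rich part.

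FOXQ1 is another forkhead factor. Foxq1 (ENSMUSG00000038415, chr13:31556134-31560976, plus strand) had no compared CpG within 1 kb of the start of its gene record, and its 113 CpGs, 103 of them CpG-dense, all counted as gene body. They gave 3.30% and 3.29% in the mESC, 3.72% and 4.78% in the C-iPSC and 5.14% and 6.27% in the 4F-iPSC libraries. The cell types did not overlap, and the 2.43 points between 4F-iPSCs and mESCs did not pass (adjusted p = 0.0745 in the quasi-binomial model).

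DAB2 is an endocytic adaptor that GATA factors switch on in extraembryonic endoderm. Dab2 (ENSMUSG00000022150, chr15:6299788-6440712, plus strand) is long and poorly covered, with 18 compared CpGs, all counted as gene body. The 11 of them at its inner transcript starts near 6386598 were read at 1.16% ± 0.650 (SD, n = 2) for mESCs, 2.29% ± 0.651 for C-iPSCs and 6.01% ± 0.855 for 4F-iPSCs. The 7 intronic ones were far higher, with the 5 CpGs of the printed intron rising from 39.3% to 82.4% and a pair in a soft-masked repeat 82 kb from the start at 56.6% ± 7.94, 72.1% ± 17.6 and 89.9% ± 4.51. The level over all 18, 36.2% and 21.1% in the mESC, 19.5% and 34.3% in the C-iPSC and 36.3% and 43.5% in the 4F-iPSC libraries, overlapped between mESCs and C-iPSCs and did not pass in any comparison. It was called in 4F-iPSCs against C-iPSCs with the dispersion trend on reads alone, and in 4F-iPSCs against both other cell types with the replicate block. Its order depends on the weighting: C-iPSCs were 1.54 points below mESCs over summed reads, whereas the mean over CpGs was 17.8% in mESCs and 30.0% in C-iPSCs.

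LAMA1 is the alpha chain of laminin 111, and COL4A1 forms type IV collagen with COL4A2. Both are long genes whose starts were unmethylated and whose bodies were not. The Lama1 promoter (ENSMUSG00000032796, chr17:67697259-67822647, plus strand; 11 CpGs) lay between 2.04% and 4.65% in all libraries, and the Col4a1 promoter (ENSMUSG00000031502, chr8:11198423-11312826, minus strand; 42 CpGs) between 1.55% and 3.43%. The 42 CpGs of the Col4a1 promoter are also the compared CpGs of the Col4a2 promoter, since the genes start head to head. The Lama1 gene body, 54 CpGs, had 62.1% and 67.9% in the mESC, 72.6% and 82.0% in the C-iPSC and 80.4% and 82.7% in the 4F-iPSC libraries. It was 13 points higher in C-iPSCs than in mESCs (adjusted p = 0.0485 in the quasi-binomial model) and 17.1 points higher in 4F-iPSCs (adjusted p = 0.000833), while the iPSC types overlapped. The call in C-iPSCs was lost without any library but C-iPSC replicate 1 (adjusted p between 0.131 and 0.860), with limma on mean CpG levels (0.158), with both other promoter widths (0.171 and 0.163) and with promoters around every transcript start (0.0511), and that in 4F-iPSCs without mESC replicate 1 (0.182) or 4F-iPSC replicate 2 (0.0653). In mESCs 94.9% of all gene bodies had a lower level than Lama1.

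The Col4a1 gene body, 69 CpGs, had 45.3% and 48.3% in the mESC, 59.9% and 70.7% in the C-iPSC and 72.9% and 77.2% in the 4F-iPSC libraries. The 3 cell types did not overlap. The rise over mESCs was 18.8 points in C-iPSCs (adjusted p = 0.0136 in the quasi-binomial model) and 28.6 points in 4F-iPSCs (adjusted p = 2.07e-06), and 4F-iPSCs were 9.81 points above C-iPSCs without passing (adjusted p = 0.188). The call in 4F-iPSCs against mESCs was kept under every alternative tried, and the call in C-iPSCs was lost without any one of the mESC or 4F-iPSC libraries, with adjusted p between 0.0611 and 0.813. Some stretches inside the gene did not follow. The 7 CpGs about 33 kb into the gene stayed at 7.36% ± 0.441, 7.76% ± 1.72 and 9.40% ± 3.89, and in a stretch of 8 CpGs near 85.5 kb the C-iPSCs were highest, at 40.9% ± 15.7 against 22.8% ± 5.26 in mESCs and 33.6% ± 4.67 in 4F-iPSCs. In Lama1 a stretch of 10 CpGs about 91 kb from the start read 40.3% ± 6.14, 49.5% ± 7.65 and 40.3% ± 6.29.

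**Figure D2:**
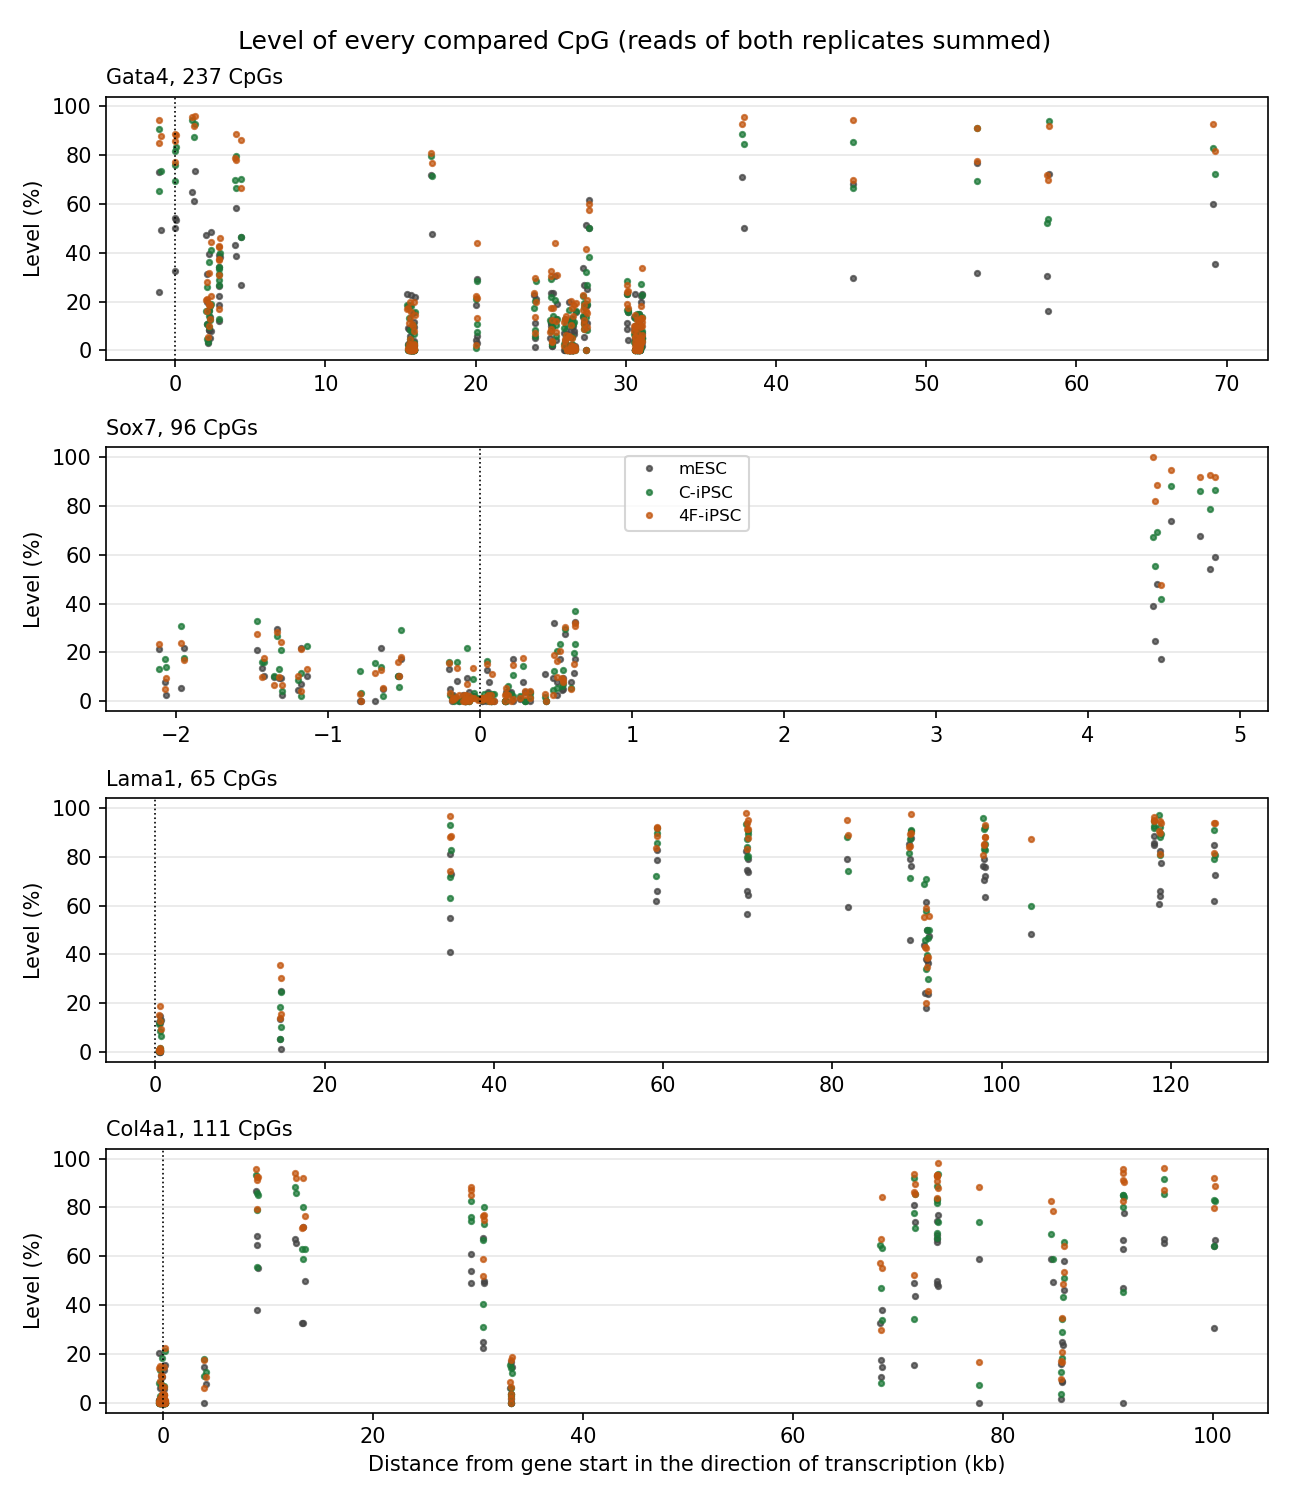
Level of every compared CpG of Gata4, Sox7, Lama1 and Col4a1 (y axis, percent, reads of both replicates summed) against its distance from the start of the gene record (x axis, kb), with a point for each cell type. The clusters near the starts of Sox7, Lama1 and Col4a1 and the Gata4 cluster of 50 CpGs near 15 kb lie near the floor in all cell types, and the CpG-poor stretches spread out with mESC points mostly lowest.

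Counted by segment, 4 of 19 tested member segments were called higher in C-iPSCs than in mESCs, 8 of 19 in 4F-iPSCs than in mESCs and 1 of 19 in 4F-iPSCs than in C-iPSCs, and none was called lower by this model, at an unadjusted p under 0.05 or with limma on mean CpG levels (0 in each of the 3 comparisons). Leaving out mESC replicate 1 or replicate 2 took the 4 calls of C-iPSCs to 0, and the 8 of 4F-iPSCs to 2 and 5. Without C-iPSC replicate 2 the 1 call between the iPSC types became 10, and without C-iPSC replicate 1 it became 0. The shares of all segments called without a library are not given here, so these changes cannot be read as particular to the members. With a dispersion trend on reads alone the calls between the iPSC types were 4 of 19, beside 26.0% of all segments. Among all gene bodies 36.1% were called higher in C-iPSCs than in mESCs, and 3 of the 9 member gene bodies were. In 4F-iPSCs against mESCs the share was 80.6% of all gene bodies and 5 of 9 members, and between the iPSC types 6.26% and 1 of 9. Of all promoters 3.77% were called in C-iPSCs against mESCs, beside 1 of 7 member promoters (Gata4), 11.3% in 4F-iPSCs against mESCs, beside 2 of 7 (Gata4 and Foxa2), and 1.59% between the iPSC types, beside 0 of 7, of which 1 had an unadjusted p under 0.05. For upstream parts the shares were 25.0%, 61.8% and 4.99%, beside 0, 1 and 0 of 3, with the same counts at an unadjusted p under 0.05. The median difference over the 9 gene bodies was 1.40, 5.55 and 3.14 points in the 3 comparisons, and that over all gene bodies 14.6, 24.9 and 9.35 points. The first of these member medians became 5.35 points when C-iPSC replicate 1 was left out, 0.393 when replicate 2 of that type was, 2.49 on leaving out mESC replicate 1 and 2.76 over mean CpG levels. The second was 3.41 points without mESC replicate 2, and the last 5.39 points without C-iPSC replicate 2 and 1.18 without C-iPSC replicate 1. For promoters the medians were 0.663, 1.40 and 0.897 points over the 7 members and 0.168, 0.683 and 0.576 points over all. The first member value was 0.269 without C-iPSC replicate 2, 0.305 without mESC replicate 2, 1.01 without mESC replicate 1 and 1.43 without C-iPSC replicate 1. The second was 0.708 without 4F-iPSC replicate 2 and 2.17 without 4F-iPSC replicate 1. The last was -0.0745 without 4F-iPSC replicate 2 and 1.87 without 4F-iPSC replicate 1. Both 4F-iPSC libraries lay above both mESC libraries in 15 of 19 member segments (66.7% of all segments), both C-iPSC libraries above both mESC libraries in 12 (52.9%), and both 4F-iPSC libraries above both C-iPSC libraries in 10 (49.0%). The last count leaves out the Gata4 promoter. There replicate 2 of 4F-iPSCs and replicate 2 of C-iPSCs both read 81.3% and were apart, without overlap, only beyond those digits.

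The same comparison was made at single CpGs with the study's criterion for a strong difference, a two-sided Fisher's exact test of the replicates' pooled reads. A CpG is called strongly higher or lower where the unadjusted p is under 0.05 and the methylated fractions differ by more than 0.333. In C-iPSCs against mESCs 11 of the 1104 member CpGs were strongly higher (0.996%), beside 2.9% of all compared CpGs. In 4F-iPSCs against mESCs 50 were (4.53%), beside 14.3% of all, and in 4F-iPSCs against C-iPSCs 1 was (0.0906%), beside 1.35% of all. None was strongly lower in any of the 3 comparisons by Fisher's exact test or by an adjusted quasi-binomial test, and 9, 6 and 9 were lower by any amount at an unadjusted p under 0.05, against 143, 218 and 115 that were higher. The count in C-iPSCs was 20 without mESC replicate 2, 24 without C-iPSC replicate 1 and 4 without C-iPSC replicate 2, and that between the iPSC types 5 without C-iPSC replicate 2 or 4F-iPSC replicate 1. Shares of all compared CpGs without a library are not given here, so these counts have no genome-wide value beside them. Of the 50 CpGs, 18 lie in Col4a1, 15 in Gata4, 5 in Dab2, 4 in Sox7, 3 in Gata6, 2 each in Foxa2 and Lama1 and 1 in Foxq1. In C-iPSCs the 11 comprise 7 in Gata4, 2 in Col4a1 and 1 each in Dab2 and Lama1. Of the 50, 33 had at least 10 summed reads on both strands in both cell types, and 32 of those were higher on both strands, 23 of them past the criterion on both. Of the 11 calls in C-iPSCs 5 had such reads, all 5 were higher on both strands and 2 passed on both. The CpG of Col4a1 at 11239081, 1 of the 50 called in 4F-iPSCs, was at 0% on the minus strand in all 6 libraries, with 4 to 31 reads there, and between 63.3% and 95.5% on the plus strand.

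The only CpG that passed between the iPSC types is in a coding exon of Col4a1, at chr8:11221352, in the printed stretch. Its levels were 0% in both mESC ones, 41.9% and 49.2% in the C-iPSC and 95.5% and 95.8% in the 4F-iPSC libraries. No other called CpG of the set had 0 in both mESC libraries. Its strands differed: the mESC libraries had 16 and 27 reads on the minus strand and 0 on the plus strand, and the C-iPSC libraries had 92.3% and 100% on the plus strand but 28.6% and 39.2% on the minus strand. In 4F-iPSCs both strands were at 94.1% or more. The neighbouring CpG at 11221379 had 37.5% and 77.8% in mESCs. Whether a difference in sequence between the cell lines contributed at this position was not tested.

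CpGs were also grouped by the 500 bases around them. A CpG-dense window has an observed to expected CpG ratio above 0.75 and a GC share above 0.55, a sparse one a ratio under 0.48, and the rest are intermediate. Of the 1104 member CpGs 576 were dense (52.2%), 353 intermediate (32.0%) and 175 sparse (15.9%), where the other CpGs in spans of protein-coding genes had 49.7%, 23.6% and 26.7%. Dense member CpGs averaged 2.66% ± 0.385 (SD, n = 2 libraries) for mESCs, 3.12% ± 0.605 for C-iPSCs and 3.82% ± 1.01 for 4F-iPSCs, and 0 of the 576 was strongly called in any comparison by Fisher's exact test or the quasi-binomial model, with 7, 25 and 17 higher by any amount at an unadjusted p under 0.05. Sparse member CpGs averaged 47.1% ± 4.5, 63.1% ± 7.5 and 69.7% ± 0.447, and held all 11 strong calls of C-iPSCs and 44 of the 50 of 4F-iPSCs, the other 6 being intermediate. The other sparse CpGs averaged 40.7% and 45.3% in the mESC libraries, 53.2% and 62.7% in the C-iPSC and 67.3% and 68.3% in the 4F-iPSC ones. The strongly called shares of sparse CpGs were 6.29% in the members and 5.72% in the others between C-iPSCs and mESCs, 25.1% and 30.2% between 4F-iPSCs and mESCs, and 0.571% and 1.78% between the iPSC types. A level of at least 80% was reached by 5.71% of the sparse member CpGs of mESCs, 40.0% of those of C-iPSCs and 55.4% of those of 4F-iPSCs. Among the other sparse CpGs 4.09%, 25.8% and 51.2% reached it. CpGs of a gene lie together on fragments, so these shares have no test.

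**Figure D3:**
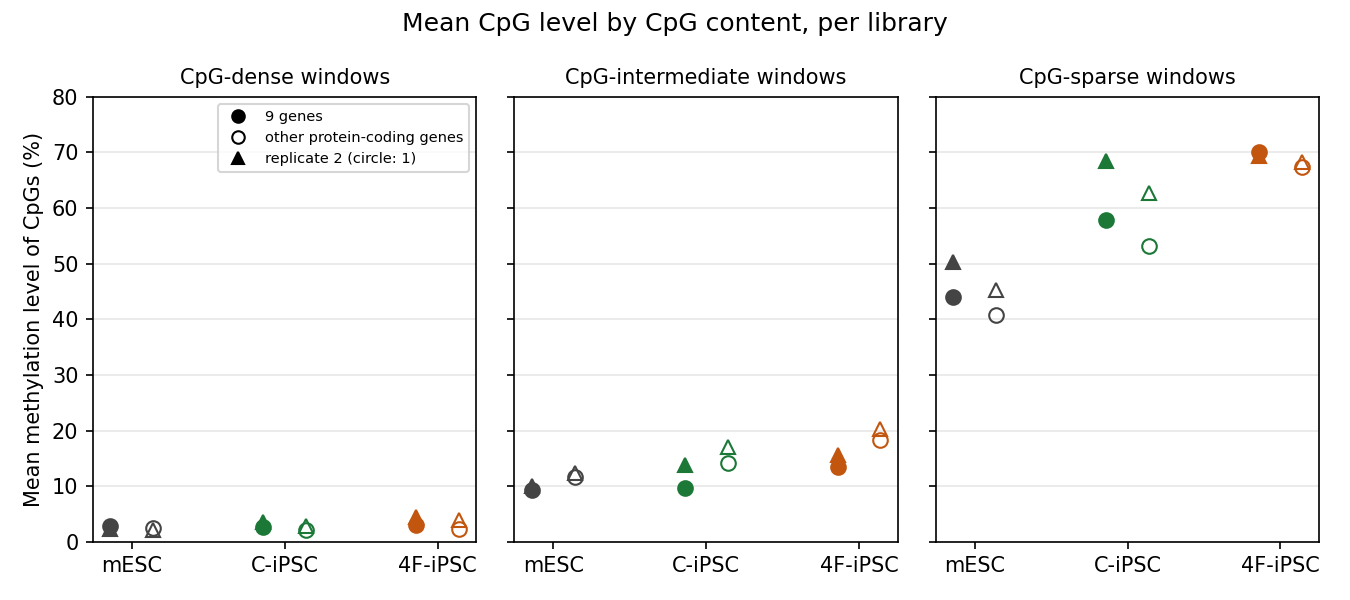
Mean level of CpGs (y axis, percent, over CpGs that the library read 10 times or more) in each library by CpG content of the window, for the 9 genes (filled) and for other protein-coding genes (open), with circles for replicate 1 and triangles for replicate 2. Dense CpGs stay under 5% everywhere, and sparse CpGs of the 9 genes run from 43.9% in an mESC library to 70.0% in a 4F-iPSC library.

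The compared CpGs of the transcription factor genes and the basement membrane genes were also described apart, with no test between the groups. Of the 910 compared CpGs of the 6 transcription factor genes 58 were sparse, and of the 176 of Lama1 and Col4a1 110 were. Over CpGs read 10 times or more in all 6 libraries, the sparse ones of the factor genes averaged 37.1% ± 4.55 (SD, n = 2) in mESC, 55.3% ± 6.50 in C-iPSC and 63.5% ± 0.0759 in 4F-iPSC libraries, and those of the basement membrane genes 53.2% ± 4.80, 68.2% ± 6.37 and 74.4% ± 0.0410. In both the replicates of 4F-iPSCs lay closer together than those of the other cell types.

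Grouping neighbours no more than 500 bases apart gave 65 clusters of member CpGs, of which 37 held sparse CpGs alone. The mean level was higher in C-iPSCs than in mESCs in 62 of the 65 and in all 37 sparse clusters, and higher in 4F-iPSCs than in mESCs in 63 of the 65 and 36 of the 37. In 4F-iPSCs against C-iPSCs it was higher in 62 of the 65 and 34 of the 37. Over all tested segments of protein-coding genes, a different unit, the difference was positive in 81.1%, 95.8% and 94.0% in these 3 comparisons. Clusters of a gene share their libraries and are no replicates. The median over the sparse clusters was 51.6% for mESCs, 75.5% for C-iPSCs and 86.5% for 4F-iPSCs, and over the 18 clusters with no sparse CpG 3.85%, 5.39% and 7.53%.

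**Figure D4:**
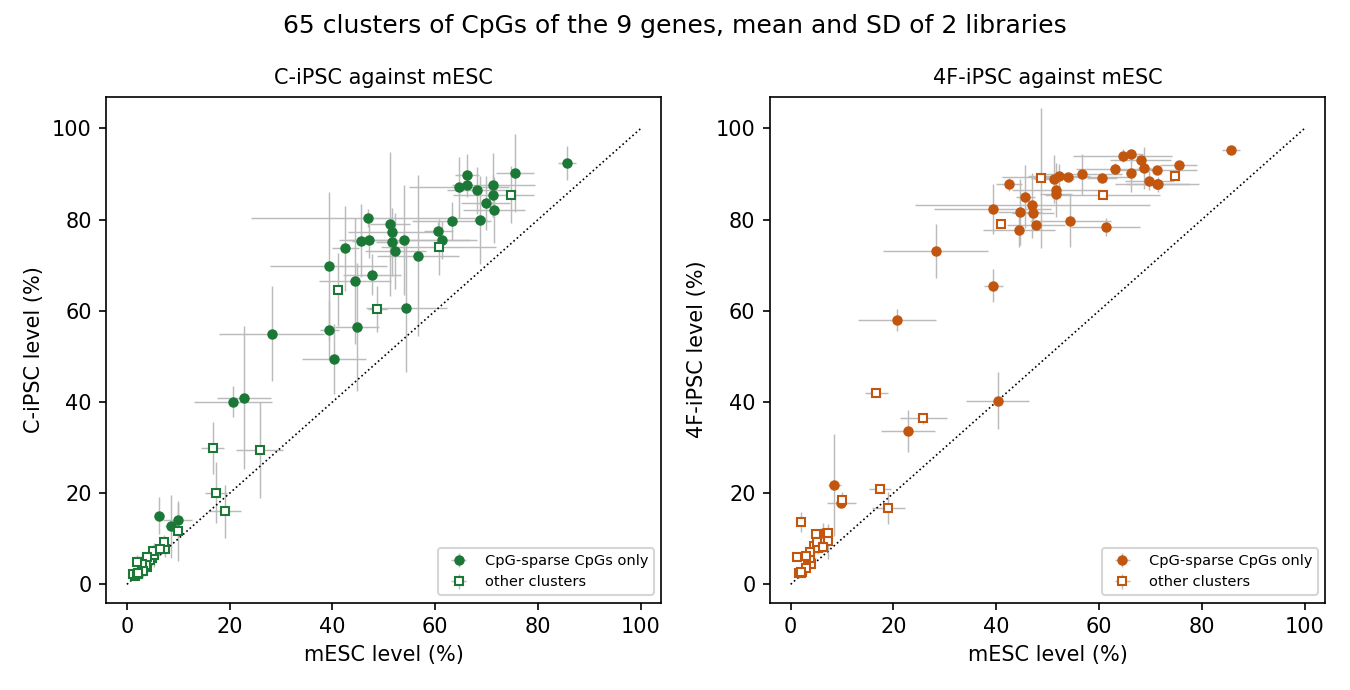
Mean level of each of the 65 clusters in C-iPSCs (left) and 4F-iPSCs (right) against mESCs (axes in percent), with bars for the SD of 2 libraries, filled circles for the 37 clusters of sparse CpGs alone and open squares for the others. The dotted line marks equal levels, and 62 of 65 points lie above it on the left and 63 on the right.

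The libraries of a cell type were themselves apart. Over member CpGs read 10 times or more in each of the pair, C-iPSC replicate 2 was on average 3.15 points above replicate 1, while 4F-iPSC replicate 2 was 1.27 points and mESC replicate 2 0.886 points above replicate 1. Set library against library, C-iPSCs were 1.21 to 5.38 points above mESCs, 4F-iPSCs 4.61 to 6.87 points above mESCs, and 4F-iPSCs 0.0828 to 4.56 points above C-iPSCs, the lower end of the last range being 4F-iPSC replicate 1 against C-iPSC replicate 2. The step between the iPSC types was thus of the size of the spread between the C-iPSC libraries.

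Another 20 genes of the extraembryonic endoderm were read the same way. Of their 1409 CpGs, 45 of which are shared with Col4a1 through Col4a2, 25 were strongly higher in C-iPSCs than in mESCs, 173 in 4F-iPSCs than in mESCs and 1 in 4F-iPSCs than in C-iPSCs, and 0 strongly lower. Over all compared CpGs of the genome the called shares were 2.9%, 14.3% and 1.35%, as given above. The most, 32, lie in Col4a2, the partner chain of COL4A1, then 21 in the nuclear receptor gene Hnf4a, 14 in the endocytic receptor gene Lrp2 and 10 each in the laminin gene Lamb1 and the plasminogen activator gene Plat. Of their gene bodies 12 of 18 were called higher in C-iPSCs than in mESCs and 17 of 18 in 4F-iPSCs, beside the 36.1% and 80.6% of all gene bodies. Of 17 tested promoters, 2 were called in C-iPSCs against mESCs, those of Cubn and Srgn, beside 3.77% of all promoters, and 5 in 4F-iPSCs against mESCs, those of Cubn, Srgn, Hnf4a, Amn and Gata5, beside 11.3% of all. The Srgn promoter, 7 CpGs, stood at a mean of 31.2% in mESC, 56.7% in C-iPSC and 77.3% in 4F-iPSC libraries, whereas that of Foxa1, a close relative of Foxa2 named after its values were seen, had 1.86%, 1.84% and 2.16%.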

How the data were processed

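RRBS libraries of 2 replicates per cell type were analysed. The authors digested DNA with MspI, aligned reads to mm10 with BSMAP 2.90 and deposited, per CpG and strand, counts of all and of methylated reads, with the methylated fraction, which the deposited counts matched within 0.0005. PCR copies are not marked, so reads are not independent molecules. Gene records were those of GENCODE M21. Members and lists were chosen with earlier results of these data known. Reads were summed per segment and tested in R 4.3.3 by a quasi-binomial model of cell type over all 6 libraries, with dispersions squeezed by limma 3.58.1 and kept at 1 or above. The form of the prior dispersion was settled after the data were seen. A trend on reads alone came first, was replaced because it followed the dispersion poorly at low and middle levels, and members' calls had been seen before the change. The prior adopted follows reads times level times (1 - level) over segments with levels between 0.01 and 0.99, a narrower set than planned, and its prior degrees of freedom were infinite, so a segment's p rests on this trend and not on its own spread. All forms are given under the dependence on processing. In data simulated for 4F-iPSCs against mESCs over 31022 segments, 99 of 100 changes of 30 points and 15 of 100 of 10 points were recovered, and 3 unchanged segments were called, with a simulated spread chosen alongside this form. That spread had a fixed size and was drawn independently for each segment and library. Real libraries also differ over many segments together, so these counts do not give error rates for the measured data. Fisher's exact test was checked against scipy 1.17.1. Alternatives changed the coverage minimum, difference, test, promoter, CpGs per segment, replicate block and libraries. Other extraembryonic endoderm genes named are the 5 with most strong CpGs and those with a called promoter, with Foxa1 added after its values were seen.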

Additional observations from a re-analysis of the deposited data

How the results depend on the processing

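The 13 calls of single member segments kept their sign in all 221 values under other settings and lost the call in 53, and 1 call, the Col4a1 gene body in 4F-iPSCs against mESCs, was kept throughout. Called member segments, main counts 4 (C-iPSCs against mESCs), 8 (4F-iPSCs against mESCs) and 1 (4F-iPSCs against C-iPSCs), ranged over 0 to 6, 2 to 10 and 0 to 10 when a library was left out. Promoters from 2 kb upstream to 0.5 kb downstream, and every transcript start, each gave 2 in the first comparison. In the last, limma on mean CpG levels, both other promoter widths and at least 5 CpGs per segment each gave 0. The dispersion prior was chosen after the data were seen. A trend on reads alone, the form run first, gave 4, 8 and 4 calls (33.6%, 50.1% and 26.0% of all segments, against 20.5%, 47.8% and 4.05%). A prior over all segments gave 4, 8 and 1 (20.4%, 47.8% and 4.06% of all segments). A prior without a trend gave 2, 10 and 0 (17.5%, 45.4% and 3.26%). The first form added Col4a1 gene body, Dab2 gene body and Foxa2 promoter between the iPSC types, and the last lost Gata4 promoter and Sox7 gene body in C-iPSCs against mESCs and added Foxq1 and Gata4 gene bodies in 4F-iPSCs against mESCs. The count between the iPSC types thus rests on this choice. The replicate block gave 4, 10 and 4 calls, beside 30.7%, 51.8% and 21.7% of all segments. It added Dab2 and Foxq1 gene bodies in 4F-iPSCs against mESCs and the same 3 segments as the first form between the iPSC types. Differences between replicates correlated at -0.019, -0.279 and 0.059 between cell types, so replicates of the same number showed no clear common shift. These values cannot show whether replicate numbers pair the samples. Strong CpGs, main counts 11, 50 and 1, numbered 63, 116 and 17 with a difference above 0.2 and 0 and 6 in the first 2 comparisons with one above 0.5. The quasi-binomial model at single CpGs gave 5 in the first, and at least 5 reads gave 3 in the last. Without a library the counts were 4 to 24, 38 to 56 and 1 to 5. Beyond the priors and the replicate block, shares over all segments or CpGs under other settings are not given here. Member counts under those settings thus cannot be read as results about the members. The median promoter difference of 4F-iPSCs from mESCs, 1.40 points, was 2.49 with promoters of 0.5 kb to each side and 2.9 with 2 kb upstream to 0.5 kb downstream, and 0.708 to 2.17 without a library. That of C-iPSCs, 0.663 points, was 0.269 to 1.43 without a library and 1.34 over mean CpG levels. That between the iPSC types, 0.897 points, was 1.92 over mean CpG levels and -0.0745 to 1.87 without a library, negative without 4F-iPSC replicate 2. Median gene body differences were 0.393 to 5.35, 3.41 to 6.24 and 1.18 to 5.39 points without a library. Causes of these moves were not tested. Segments share libraries that differ genome-wide and are not independent, and genes such as Dab2 and Lama1 are known from a small share of their CpGs.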
